A study of Mus musculus with 4 samples.

Results

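The 9 genes described here control the shape and the turnover of mitochondria: Mfn1, Mfn2 and Opa1 for fusion, Dnm1l, Fis1 and Mff for fission, and Pink1, Bnip3 and Bnip3l for mitophagy. They were chosen by gene symbol from the 23420 genes in the deposited count tables, and all 9 were found and passed the filter on low counts. The data are 4 libraries of polyadenylated RNA from the heart of wild-type C57BL/6J mice, labelled male and 12 weeks old, numbered 1 to 4 as in the submitters' titles. No allele, treatment or control group is labelled, so the comparisons are between genes within a library and between the libraries. The tissue is labelled as whole heart, although by the labels' protocols only the ventricular apex was used. The RNA is that of a mixed tissue, in which fewer cells of a type and less RNA per cell cannot be told apart.

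Mitochondria fuse and divide continually. The mitofusins join the outer membranes of neighbouring mitochondria and Opa1 joins the inner ones, while the dynamin-like GTPase encoded by Dnm1l is drawn to the surface by adaptors such as Mff and Fis1 and constricts the organelle. Damaged mitochondria are removed by mitophagy: the kinase encoded by Pink1 gathers on them and phosphorylates ubiquitin there, and Bnip3 and Bnip3l act as receptors on the outer membrane that bind the LC3 proteins of the autophagosome. Cardiomyocytes are densely packed with mitochondria, and both dynamics and mitophagy are needed for a healthy adult heart.

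The libraries held between 10523709 and 15359296 reads assigned to genes. Levels are given as counts per 1000000 gene counts (CPM) and, where genes are compared, as CPM per kilobase of the union of a gene's exons. Markers of cardiomyocytes summed to between 100352 and 111851 CPM, with 8 of 8 at 1 CPM or more. Markers of other cell types of the heart were also present, with all listed symbols found in the files at 1 CPM or more: 849 to 972 CPM for fibroblasts, 1207 to 1239 for endothelium, 1254 to 1385 for smooth muscle and pericytes and 183 to 227 for macrophages. Of 6 adipocyte markers 1 reached 1 CPM, and their sum was 2.43 and 3.19 CPM in libraries 1 and 4 and 7.40 and 9.12 in libraries 2 and 3. Of 8 skeletal muscle markers 2 did, Acta1 (mean 246 CPM) being 1 of them. The sum of the 8, 1736 to 2140 CPM, thus came almost wholly from 2 genes. Whether skeletal muscle was present was not tested. Libraries 2 and 3 went against their label of sex. Xist, the RNA of the inactive X chromosome, had 5 and 19 counts in libraries 1 and 4 but 1897 and 1806 in libraries 2 and 3. The Y-linked gene Ddx3y had 341 and 437 counts in libraries 1 and 4, against 0 and 1 in the others. Values are therefore also given for libraries 1 and 4 alone.

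The windows at the start of 4 genes are shown, because they belong to the most abundant members, Pink1 and Mfn2, to the less abundant mitofusin, Mfn1, and to Bnip3, a known target of the hypoxia-inducible factors. Each runs from 250 bases before to 50 bases after an annotated start in RefSeq (GRCm38.p6), 5′ to 3′ on the gene's strand. Capitals mark the core of the hypoxia response element, searched as ACGTG and GCGTG on both strands, with overlaps allowed. They are chr4:138326247-138326546 (minus strand) for Pink1, chr4:147904860-147905159 (minus strand, the first of 3 annotated starts) for Mfn2, chr3:32529232-32529531 (plus strand) for Mfn1 and chr7:138909457-138909756 (minus strand) for Bnip3.
Pink1: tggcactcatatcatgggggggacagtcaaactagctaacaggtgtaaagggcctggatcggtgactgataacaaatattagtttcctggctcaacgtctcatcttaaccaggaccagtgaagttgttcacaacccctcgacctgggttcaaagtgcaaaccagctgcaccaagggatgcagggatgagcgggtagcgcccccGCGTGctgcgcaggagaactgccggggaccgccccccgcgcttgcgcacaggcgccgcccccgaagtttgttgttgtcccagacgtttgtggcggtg
Mfn2: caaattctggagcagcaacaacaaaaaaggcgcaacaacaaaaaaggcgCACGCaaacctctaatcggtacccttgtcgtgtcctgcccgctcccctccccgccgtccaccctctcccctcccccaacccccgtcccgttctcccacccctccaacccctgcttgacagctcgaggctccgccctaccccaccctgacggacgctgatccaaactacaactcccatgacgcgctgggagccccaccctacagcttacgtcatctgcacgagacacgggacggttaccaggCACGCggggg
Mfn1: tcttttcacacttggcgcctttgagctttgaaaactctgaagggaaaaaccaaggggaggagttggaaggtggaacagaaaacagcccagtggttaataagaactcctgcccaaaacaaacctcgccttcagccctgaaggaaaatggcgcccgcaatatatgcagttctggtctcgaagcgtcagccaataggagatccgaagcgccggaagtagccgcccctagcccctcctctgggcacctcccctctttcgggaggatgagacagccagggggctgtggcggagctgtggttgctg
Bnip3: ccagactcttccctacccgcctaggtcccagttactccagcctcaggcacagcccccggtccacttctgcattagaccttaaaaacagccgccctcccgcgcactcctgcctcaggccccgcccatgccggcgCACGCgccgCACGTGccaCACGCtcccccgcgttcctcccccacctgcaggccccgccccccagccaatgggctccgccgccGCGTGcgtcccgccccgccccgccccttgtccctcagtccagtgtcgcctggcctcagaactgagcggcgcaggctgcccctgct

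The Bnip3 window held 5 matches to the core, those of Mfn2 and Pink1 held 2 and 1, and that of Mfn1 held 0. RefSeq windows were at hand for 8 of the 9 genes, all but Bnip3l. These 8 genes have 13 windows, since some have several annotated starts. The core was present in 8 of the 13 windows (windows of Mfn2, Dnm1l, Fis1, Pink1 and Bnip3) and in 43.8% of 32851 windows of the same length over all genes. Both forms of the core contain CG, and the 13 windows held 8 to 33 CG dinucleotides, against a median of 7 over all windows. The share over all windows is not matched for this. The longer palindrome CACGTG, which contains the core on either strand, was found in 1 of the 13 windows, that of Bnip3, and in 7.15% of all windows. CCAAT, searched on both strands, was present in 6 of the 13 (1 each of Mfn1, Opa1, Dnm1l, Fis1, Mff and Bnip3) against 37.4% of all windows. TATAAA (13.6% of windows) and AAGGTCA, a half-site of the estrogen-related receptors (4.72%), were present in 0 of the 13. These matches describe letters in the windows and say nothing of factor binding.

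Mfn2 was the dominant fusion gene. It lies on chromosome 4 (147873599 to 147904704, minus strand) and stood at 1204, 1163, 1167 and 1227 CPM in libraries 1 to 4, a mean of 1190.1 ± 30.7 CPM (SD, n = 4). Libraries 1 and 4 were both above libraries 2 and 3. Over the plain total the exact Poisson limits of 95% were separate for libraries 1 and 2, 2 and 4, and 3 and 4. These limits cover counting error only, and how often they were separate over all genes was not tested. With library sizes scaled by TMM factors, the SD of Mfn2 fell from 30.7 to 21.5 CPM. The limits of Mfn2 were not recomputed on that scale. Per kilobase Mfn2 reached 229 ± 5.90 CPM, higher than 98.8% of 12266 expressed genes with a length. Mfn1, the other mitofusin (chromosome 3, 32529465 to 32579239, plus strand), stood at 201.4, 192.3, 214.7 and 204.9 CPM, or 33.2 ± 1.52 CPM per kilobase. Its highest value was in library 3 and its lowest in library 2, the only pair whose Poisson limits were separate.

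Within each library Mfn2 exceeded Mfn1 per kilobase, by 7.03-, 7.12-, 6.40- and 7.05-fold. The mean log2 ratio was 2.79 ± 0.07 (SD, n = 4), or 6.89-fold, and 7.04-fold in libraries 1 and 4 alone. The two-sided exact sign-flip permutation p was 0.125, the smallest that 4 libraries allow, before and after Benjamini-Hochberg adjustment over the 4 ratios formed here. No ratio below can pass 0.05 for that reason, and the direction in each library is given instead.

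Opa1, which fuses inner membranes and keeps the cristae in shape, was the least abundant of the fusion genes. It lies on chromosome 16 (29579334 to 29654884, plus strand) and had 145.1, 147.6, 146.1 and 153.4 CPM, or 18.8 ± 0.472 CPM per kilobase. Its values differed by less than the counting limits in every pair of libraries. Of the summed level of the fusion genes per kilobase, Mfn2 gave 81.5 ± 0.514%, Mfn1 11.8 ± 0.527% and Opa1 6.69 ± 0.140% (SD, n = 4). The sum was 283.1, 274.0, 278.4 and 289.2 CPM per kilobase in libraries 1 to 4.

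**Figure D1:**
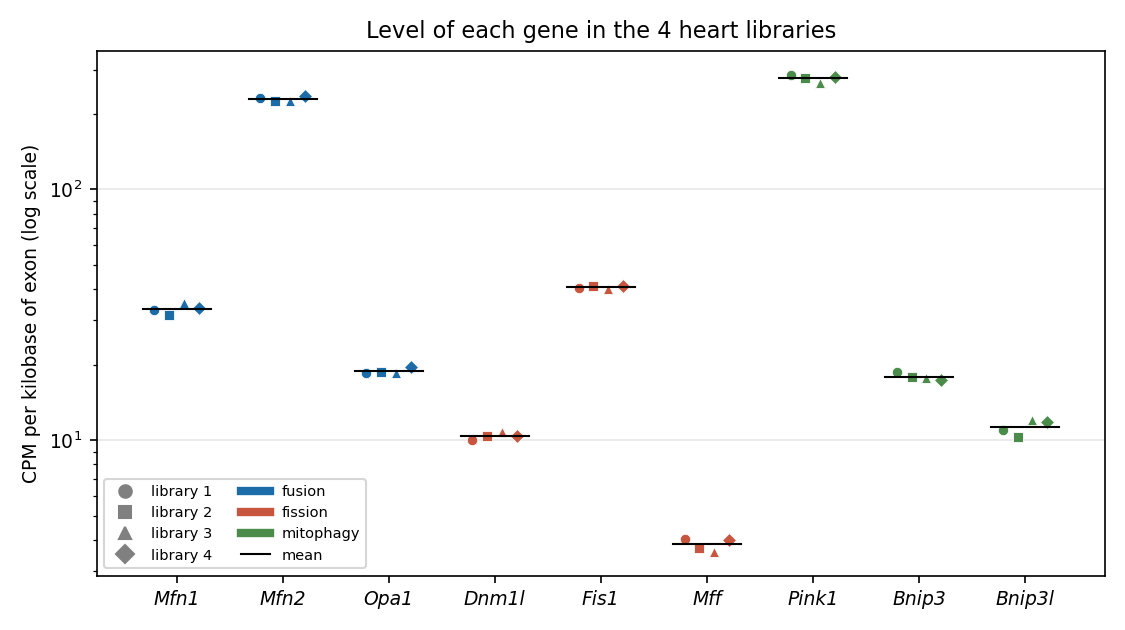
Level of each gene in CPM per kilobase of exon (log axis) in the 4 heart libraries, ordered by role; points are single libraries and the bar is the mean. Pink1 and Mfn2 stand at the top, at 277.6 and 229 CPM per kilobase, and Mff at the bottom, at 3.83.

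The summed level of the fission genes was below that of the fusion genes, most of which was Mfn2, while Fis1 stood above Mfn1 and Opa1 per kilobase. The fission sum varied little between libraries (coefficient of variation, CV, the SD as a percentage of the mean, of 1.10%, against 2.32% for the fusion sum). Fis1, a small tail-anchored protein of the outer membrane (chromosome 5, 136953275 to 136966234, plus strand), led them with 69.1, 70.6, 68.4 and 70.3 CPM. Highest and lowest library differed by 1.03-fold, and the CV of 1.46% was below the 3.29% that counting error alone gives at this depth. Dnm1l, the GTPase of division itself (chromosome 16, 16312230 to 16358959, minus strand), had 52.2, 54.1, 56.0 and 54.2 CPM. Its CV of 2.81% was also below its counting error of 3.73%. Mff, the main adaptor that recruits it (chromosome 1, 82724890 to 82752394, plus strand), had 39.3, 36.2, 35.0 and 39.1 CPM, with libraries 1 and 4 above libraries 2 and 3 but all Poisson limits overlapping.

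Per kilobase of the exon union, Fis1 stood at 40.6 ± 0.594 CPM, Dnm1l at 10.4 ± 0.292 and Mff at 3.83 ± 0.222 (SD, n = 4). Fis1 gave 74.0 ± 0.383% of the summed fission level and Mff 6.99 ± 0.395%. Fis1 exceeded Mff by 10.6-fold, in 4 of 4 libraries (exact sign-flip permutation p = 0.125, two-sided). This fold depends on the length used. The exons of the 16 annotated Mff transcripts cover 9757 bases, while the longest single transcript has 3918 and the longest coding one 2087. Fis1 over Mff was 7.69-fold per kilobase of the longest transcript, 4.22-fold with the unshared stretches of the coding transcript as the length (described with Bnip3 below), and 1.86-fold in CPM with no length correction. Genes on the opposite strand, whose reads these libraries cannot separate, overlap 4.67% of the exon bases of Dnm1l, and a smaller share of those of Mff.

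The summed level of the fusion genes exceeded that of the fission genes in each library. Their sums per kilobase were 281 ± 6.51 and 54.8 ± 0.601 CPM (SD, n = 4), a ratio of 5.20, 4.95, 5.13 and 5.22 in libraries 1 to 4 (exact sign-flip permutation p = 0.125, two-sided). The mean ratio of 5.12 became 9.56 with no length correction and 3.54 with the longest transcript, and 3.15 with unshared stretches as the length. It was 5.21 in libraries 1 and 4 alone. The ratio describes RNA, and most of its numerator was Mfn2. On the exon union its direction rests on that gene. Mfn1 and Opa1, at 33.2 and 18.8 CPM per kilobase, together stayed below the fission sum of 54.8. With no length correction Mfn1 alone, at 203 CPM, exceeded the fission sum of 161 CPM.

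Among the mitophagy genes Pink1 was by far the most abundant. It lies on chromosome 4 (138313409 to 138326307, minus strand) and had 765.5, 745.4, 706.9 and 750.6 CPM, or 277.6 ± 9.35 CPM per kilobase (SD, n = 4), the highest of the 9 genes and above 99.0% of expressed genes. In CPM over the plain total library 3 was the lowest, and its Poisson limits were separate from those of each other library. With library sizes scaled by TMM factors (0.986 in library 3 to 1.01 in library 4), the SD of Pink1 fell from 25.0 to 19.3 CPM. With the ribosomal RNA precursor Rn45s left out of the totals it rose to 33.7 CPM, on a higher mean of 851 CPM. The limits were not recomputed on either scale. In 6.70% of its exon bases Pink1 is overlapped by Mir7019 and Gm27646 on the same strand.

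Bnip3 and Bnip3l, the receptors of the outer membrane, lay close together. Bnip3 (chromosome 7, 138890836 to 138909519, minus strand) had 42.2, 40.2, 40.0 and 39.3 CPM, a CV of 3.04% that was below its counting error of 4.32%. Bnip3l, also called Nix (chromosome 14, 66985239 to 67008877, minus strand), had 42.4, 39.6, 46.6 and 45.4 CPM, with library 2 lowest and library 3 highest. In CPM the pair did not differ beyond its spread: Bnip3l was the higher in 3 of 4 libraries, with a log2 ratio of 0.10 ± 0.13 (SD, n = 4, two-sided exact sign-flip permutation p = 0.375). Per kilobase Bnip3 was the higher, by 1.59-fold and in 4 of 4 libraries (log2 ratio of Bnip3l to Bnip3 of -0.67 ± 0.13, exact permutation p = 0.125), since its exons are shorter (2265 against 3859 bases). The direction of this pair thus depends on the length correction.

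The counts of both receptors are uncertain, because other loci in the genome carry near copies of them and reads that align to several places were not counted. In the longest coding transcript of Bnip3, 835 of 1707 stretches of 50 bases (48.9%) also occur in a gene elsewhere in GENCODE M21, among them Gm16439, Gm6532, Gm9419 and Gm14506. For Bnip3l the count was 752 of 3210 (23.4%), in the pseudogene Bnip3l-ps. Nearly the whole coding sequence is covered by such stretches, 553 of 561 bases (98.6%) in Bnip3 and 594 of 612 (97.1%) in Bnip3l. For comparison the share of stretches was 2.99% in Dnm1l and 0.066% in Mfn1, and 0 in Mfn2, Opa1, Fis1, Mff and Pink1. Of coding bases, such stretches covered 360 of 2136 (16.9%) in Dnm1l and 0 in Mfn1, Mfn2, Opa1, Fis1, Mff and Pink1. The following windows are examples of such sequence. Each holds 61 bases of coding sequence from the GENCODE M21 transcripts, and the capital marks a base that no shared stretch covers. Each window is the first in its coding sequence with a single uncovered base, at its centre, so the single capital follows from that choice. They run from coding position 194 to 254 in Bnip3, with the capital at 224, and from 24 to 84 in Bnip3l, with the capital at 54.
Bnip3: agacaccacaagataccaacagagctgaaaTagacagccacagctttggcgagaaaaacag
Bnip3l: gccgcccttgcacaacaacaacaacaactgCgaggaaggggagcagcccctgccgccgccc

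Exon bases of Bnip3 are also overlapped by an antisense gene, Gm45507, for 22.3% of their length. With the CPM of the whole gene divided by the number of stretches of the longest coding transcript that occur nowhere else, a length chosen after seeing the data, Bnip3 stood at 46.4 ± 1.41 and Bnip3l at 17.7 ± 1.28 CPM per kilobase (SD, n = 4), a ratio of 2.63. On the union of exons they stood at 17.9 ± 0.542 and 11.3 ± 0.815. How many reads of either gene were left uncounted was not tested, and the read length is not given in the sources used here.

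The summed level of the 3 mitophagy genes was 316.0, 306.9, 294.2 and 309.9 CPM per kilobase in libraries 1 to 4, a mean of 307 ± 9.20 (SD, n = 4), with library 3 lowest, as for Pink1. Pink1 alone gave 90.5 ± 0.420% of it, Bnip3 5.82 ± 0.171% and Bnip3l 3.68 ± 0.340%. Each role thus had one leading gene, and Pink1 and Mfn2 made up 43.2% and 35.6% of the level summed over all 9.

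Ordered by level per kilobase, the genes ran Pink1, Mfn2, Fis1, Mfn1, Opa1, Bnip3, Bnip3l, Dnm1l and Mff. Opa1 and Bnip3 overlapped between libraries, with Opa1 higher in 3 of 4 and by 1.05-fold on average. Bnip3l and Dnm1l overlapped too, with Bnip3l higher in 3 of 4 and by 1.08-fold. The other 6 pairs of neighbours did not overlap. Pink1, Mfn2 and Fis1 kept the first 3 places under all 3 lengths. The middle moved: with unshared stretches as the length Bnip3 overlapped with Mfn1 (45.1 ± 2.05 CPM per kilobase, SD, n = 4), and Mff, at 18.4 ± 1.06, overlapped with Bnip3l and stood above Dnm1l at 14.2.

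**Figure D2:**
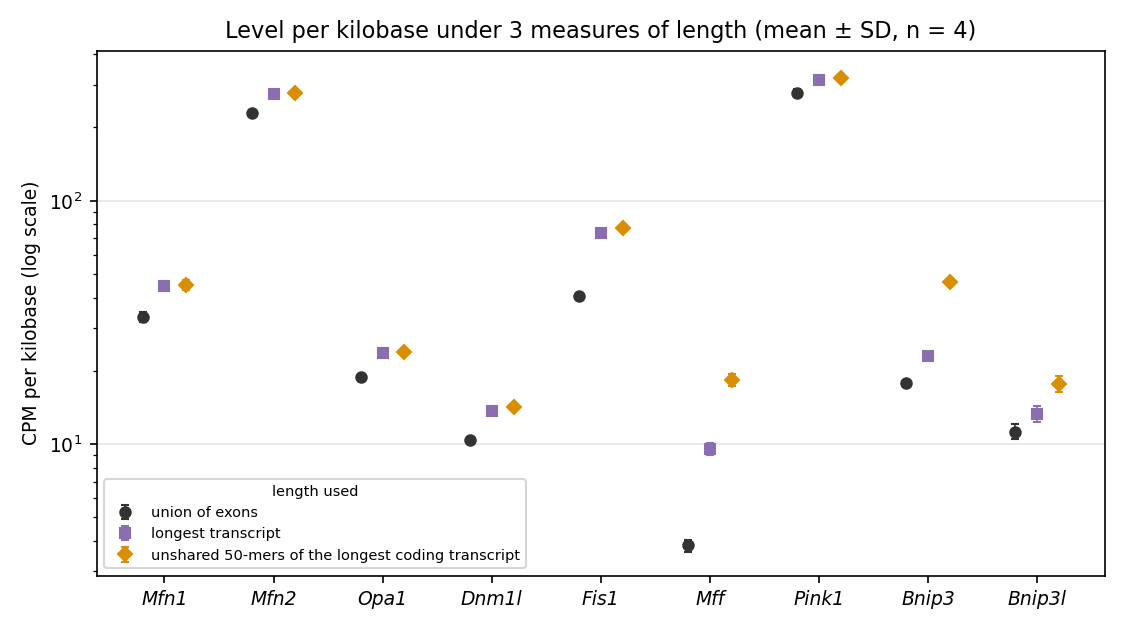
Mean level of each gene in CPM per kilobase (log axis) under 3 definitions of gene length: the union of exons, the longest transcript, and the unshared stretches of 50 bases in the longest coding transcript. Mff and Bnip3 move most between definitions, while Pink1 and Mfn2 lead under each.

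The 9 genes were steady between libraries. The highest library exceeded the lowest by 1.03-fold (Fis1) to 1.18-fold (Bnip3l). Their CVs ran from 1.46 to 7.23%, with a median of 3.04% against 9.60% over the 12360 genes that averaged 1 CPM or more, and 9 of 9 were under 10% against 52.3% of all genes. The CVs of Mfn2 and Pink1 were 2.58 and 3.37%, above the counting error of 0.797 and 1.01%, so part of their small spread was more than counting. The CVs of Opa1 (2.51 against 2.26%), Mfn1 (4.56 against 1.92%), Mff (5.79 against 4.51%) and Bnip3l (7.23 against 4.16%) were also above their counting errors. In the plot of spread against level, abundant genes vary less in general, and the test below takes this into account.

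**Figure D3:**
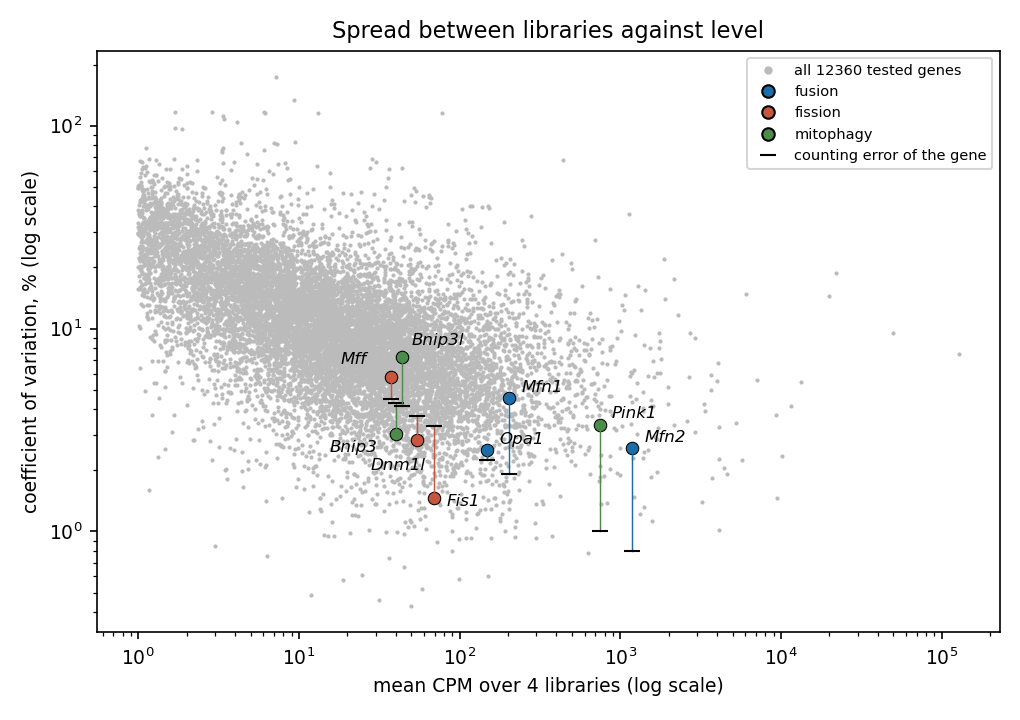
CV between the 4 libraries against mean CPM (both log axes) for 12360 tested genes in grey and the 9 genes in colour; the short black line joined to each coloured point is its counting error. Dnm1l, Fis1 and Bnip3 lie below their counting error and Fis1, at 1.46%, is the steadiest of the 9.

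In a test of whether a gene spread more between libraries than genes of like abundance (edgeR's quasi-likelihood fit, Benjamini-Hochberg adjusted p under 0.05), 0.445% of all genes tested were called (55 of 12360) and 0 of the 9. At an unadjusted p under 0.05 the count was also 0 of 9, against 741 of 12360 over all genes, so that a count of 0 among 9 says little. Adjusted calls by limma were 0 of 9, against 50 of 12360 over all genes. As dispersion outliers of DESeq2 they were 0 of 9, against 129 of 12360. The variance ratio is a gene's variance over that of the trend at its abundance, and its log2 is below 0 where a gene spreads less than the trend. It was below 0 for 8 of 9 against 56.5% of all genes, and its median was -2.23 against -0.23. It was lowest for Fis1 (-5.33), Opa1 (-3.34) and Mfn2 (-3.24). It was highest for Bnip3l, at 0.13 (adjusted p = 0.995, edgeR). The test looks for wide spread only, so it does not show that these genes were steadier than others.

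The order of the libraries differed between the genes. Library 1 was highest for 3 of the 9, library 2 for 1, library 3 for 3 and library 4 for 2, where over all tested genes the shares were 21.6, 28.5, 22.9 and 27.0%. Libraries 1 to 4 were lowest for 2, 3, 3 and 1 of the 9, against 19.8, 30.7, 33.4 and 16.1% of all genes. Counts this small do not set the 9 genes apart from the rest. In CPM over the plain total, library 3 was apart from the others beyond counting error for Pink1. The mean of libraries 1 and 4 was 1215 CPM for Mfn2, against 1165 in libraries 2 and 3. It was 758 against 726 for Pink1 and 39.2 against 35.6 for Mff. It was also the higher for Opa1 (149.2 against 146.8), Bnip3 (40.8 against 40.1) and Bnip3l (43.9 against 43.1). It was the lower for Dnm1l, at 53.2 against 55.0 CPM. For Fis1 it was 69.7 against 69.5 CPM, and for Mfn1 203.1 against 203.5. Whether the split in sex-linked transcripts had a part in these values was not tested.

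**Figure D4:**
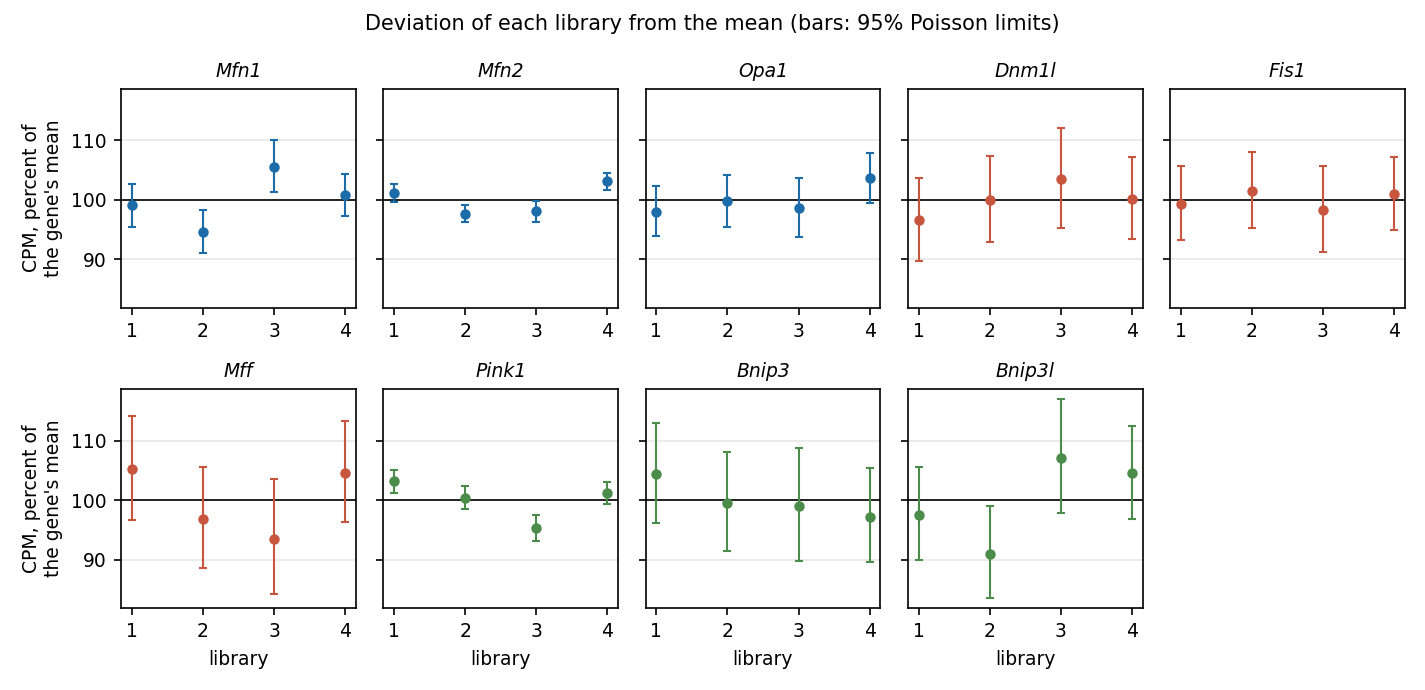
CPM of each library as a percentage of the gene's mean over the 4 libraries, 1 panel for each of the 9 genes, with 95% Poisson limits as bars. Fis1 stays closest to its mean, while the limits of library 3 for Pink1 lie below those of the other libraries.

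The genes whose pattern over the 4 libraries was most like that of the 2 members with the largest variance ratio were sought among 7765 genes of at least 10 CPM, by the Euclidean distance of log2 CPM centred on each gene's mean. For Bnip3l they were Myo1d (distance 0.00902), Srpk1 (0.0118) and Rad21 (0.0125). Myo1d, an unconventional myosin, had 30.6, 28.4, 33.5 and 32.9 CPM, lowest in library 2 and highest in library 3 as Bnip3l was. For Mfn1 they were Rybp (0.00790), Ctnnd1 (0.00858) and Rab3gap1 (0.00890). Ctnnd1, the adhesion protein p120 catenin, had 130.9, 124.5, 138.7 and 133.4 CPM, again lowest in library 2 and highest in library 3. These distances rest on 4 libraries and were given no test. That the named genes share their member's highest and lowest library follows from the way they were chosen. The log2 variance ratio of Mfn1 itself was -0.41, below the trend.

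Other genes of the same pathways were examined in 4 lists of 77 genes in all, of which 73 were tested and 0 called by edgeR, limma or DESeq2. Over all 12360 genes tested, edgeR called 55 (0.445%), limma 50 and DESeq2 129, so that 0 of 73 says little. At an unadjusted p under 0.05 the count by edgeR was 1, against 741 of the 12360 genes tested. Their median CV was 7.02%, and 55 of 73 (75.3%) were under 10%. Their median log2 variance ratio was -0.29, close to the -0.23 of all genes, and that of 69.9% was below 0.

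Among 22 tested genes that control fusion and cristae, the most abundant per kilobase were the scaffold prohibitin, Phb (100.4 ± 4.10 CPM per kilobase, SD, n = 4), the cristae junction protein Chchd3 (88.0 ± 3.32) and Rhot2, a GTPase of mitochondrial transport (55.1 ± 3.46). Each was above Mfn1 and below Mfn2. The largest variance ratio was that of Apool, a cristae junction protein, with 7.35, 4.81, 10.1 and 10.5 CPM (log2 ratio 2.83, unadjusted p = 0.0139, adjusted p = 0.511, edgeR). Library 2 was the lowest and libraries 3 and 4 the highest. Fam73b, now called Miga2, had 89.9, 110, 83.1 and 86.7 CPM, with library 2 the highest (log2 ratio 1.96), and Fam73a, now Miga1, had a log2 ratio of 1.28.

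Among 16 tested fission adaptors and regulators, Mtfp1, an inner membrane fission protein, led with 68.2 ± 3.23 CPM per kilobase (SD, n = 4), above Fis1. Akap1, which anchors protein kinase A at the outer membrane, stood at 41.3 ± 2.68 and Mtfr1l at 27.3 ± 1.32. Inf2, an actin-nucleating formin that helps division, had 53.9, 42.7, 40.2 and 48.4 CPM, higher in libraries 1 and 4 (log2 variance ratio 1.61, adjusted p = 0.935, edgeR). The Dnm1l adaptors Smcr7 and Smcr7l, now Mief2 and Mief1, had log2 variance ratios of 1.41 and 0.91. Gdap1 had 0 counts in all 4 libraries, where 3 counts are worth 0.195 to 0.285 CPM.

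Among 20 tested genes that act with Pink1 in mitophagy, the pore protein of the outer membrane, Vdac1, stood at 273 ± 16.4 CPM per kilobase (SD, n = 4), next to Pink1 itself. The autophagy receptor Sqstm1 had 141.0 ± 11.8 and the segregase Vcp 86.9 ± 1.29. Fbxo7, an F-box protein, had 14.3, 9.48, 10.3 and 12.5 CPM, lower in libraries 2 and 3 (log2 variance ratio 1.47, adjusted p = 0.949, edgeR). The kinase Tbk1 and the chaperone Trap1 followed with log2 ratios of 1.46 and 1.11. The receptor gene Calcoco2 had 3, 0, 0 and 3 counts and was not tested.

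Among 17 tested mitophagy receptors and LC3 family genes, Map1lc3a led with 359 ± 12.4 CPM per kilobase (SD, n = 4), above Pink1. Gabarap, of the same family, had 74.6 ± 5.15 and the inner membrane receptor Phb2 48.9 ± 1.53. Gabarapl1 had 104, 84.7, 93.3 and 108 CPM, lowest in library 2 (log2 variance ratio 1.47, adjusted p = 0.949, edgeR). Ulk1, the kinase that starts autophagy, had 197, 230, 187 and 195 CPM, highest in library 2 (log2 ratio 1.21), and Gabarapl2 had a log2 ratio of 1.20.

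**Figure D5:**
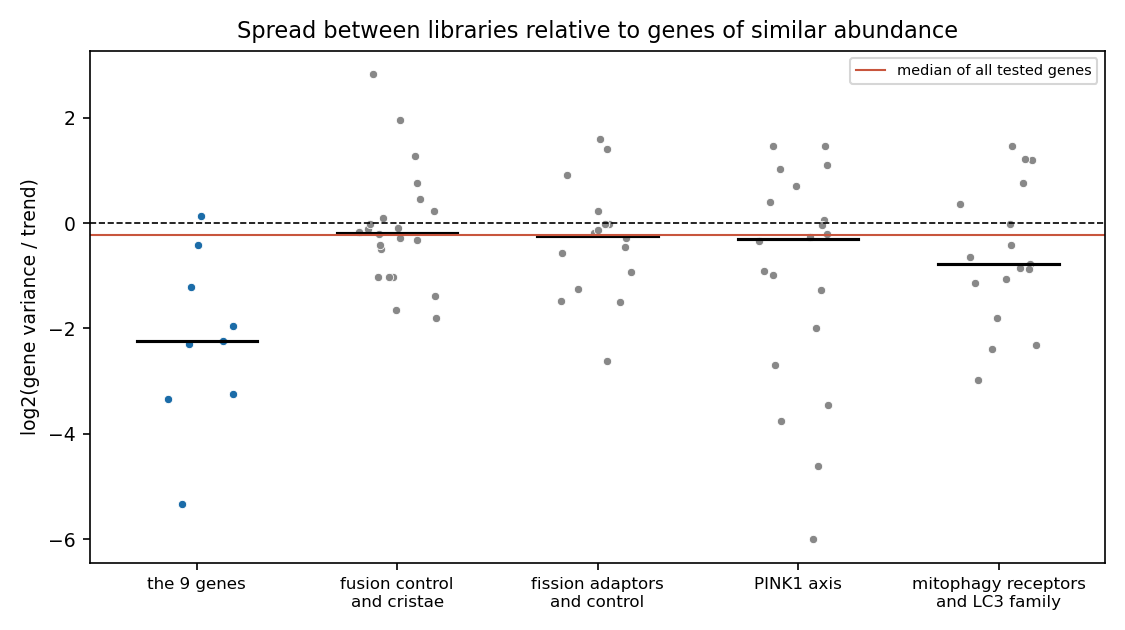
log2 variance ratio of each tested gene among the 9 genes and in the 4 other pathway lists; each point is a gene, black bars are medians, and 0 is the trend at its abundance. The points of the 9 genes lie between -5.33 (Fis1) and 0.13 (Bnip3l), and Apool, at 2.83, is the highest of the other lists.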

How the data were processed

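The deposited files hold raw read counts per gene for 4 libraries, made by the authors and not normalized. Per the submitters' processing notes the build was mm10 and the tools listed, with no roles, were TopHat, TopHat2 2.0.10, Bowtie2, HTSeq, edgeR and DESeq. Gene annotation, counting mode and read length: not given in the sources used here. Per the labels' protocols, RNA was selected on oligo(dT) and libraries were single-end and did not keep strand. The 5 closing rows that name no gene held 8.96 to 9.30% of all listed reads and were left out; alignments that were not unique made up 8.13 to 8.48% of all listed reads, and reads assigned to several genes the rest.

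CPM was computed per library over all gene counts. Lengths came from GENCODE M21 (GRCm38), matched for 22999 of 23420 genes (98.2%) and 9 of 9 members. The spread test (R 4.3.3, edgeR 4.0.16) had an intercept only, TMM factors, a trended dispersion and a robust prior, on genes with a mean CPM of at least 1. It set the quasi-dispersion over its trend against F (upper tail, 3 residual and 7.43 prior degrees of freedom). The script was tested on simulated data. Ratios used counts plus 0.5 per kilobase and an exact sign-flip permutation test (scipy 1.17.1). Poisson limits are exact, at 95%, and cover counting error only. The labels do not state that every library is a separate animal, so the p-values cover only a spread between samples that may be technical.

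Genes named were the 9 members, the 3 most abundant per kilobase and the 3 with the largest variance ratio in each pathway list, and the 3 nearest patterns of the 2 members with the largest variance ratio; Gdap1 and Calcoco2 were named after their values were seen. The members and lists were chosen with earlier results of these data known. A gene that the rule would add, and the ratios that need it, are not reported here. Alternatives were other scaling (limma 3.58.1, DESeq2 1.42.0 as other tools), no filter, a prior that was not robust, other lengths and fewer libraries.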

Additional observations from a re-analysis of the deposited data

Results flagged for a closer look

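Values of 4 libraries were screened for a library far from the other 3 in 93 sets (the 9 genes, the other pathway genes, the role sums and the ratios), and 4 sets were flagged, where chance flags about 1 in 20. Trak2, an adaptor that links mitochondria to motor proteins, had 423 CPM in library 2 against 378 to 383 CPM in the others. March5, a ubiquitin ligase of the outer membrane that acts on fission and fusion proteins, had 36.2 CPM in library 2 against 40.7 to 40.9. Wipi2, which acts in the growth of autophagosomes, had 59.7 CPM in library 1 against 54.2 to 54.6. The log2 ratio of Mfn2 to Mfn1 per kilobase was 2.68 in library 3 against 2.81 to 2.83, the library in which Mfn1 was highest.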

How the results depend on the processing

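No paired analysis was possible because the 4 libraries form a single group. The count of the 9 genes called more variable was 0 under all 11 alternatives. Of the 36 alternatives of the 4 ratios, 35 kept the direction. The exception was Bnip3l over Bnip3, whose log2 ratio reversed to 0.10 with no length correction. No alternative left a gene out of a role sum. Over all genes the calls ranged from 10 with a prior that was not robust to 258 with no filter, with 129 dispersion outliers by DESeq2, 11 in libraries 1 and 4 alone and 39 to 69 with a replicate left out. Levels of the 9 genes and of the role sums moved by over 1 SD when Rn45s, the ribosomal RNA precursor, was left out of the totals (Mfn2 to 1364 CPM and Pink1 to 851 CPM, with ratios unaffected), and the role sums also with the other lengths. The length in unshared stretches of 50 bases was chosen after seeing the data. Depth limits Mff most, at 368 to 601 counts per library.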
